A study of Mus musculus with 6 samples.

Results

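The genes Kmt2a, Kmt2b, Kmt2c, Kmt2d, Setd1a and Setd1b encode the 6 catalytic enzymes of the mammalian KMT2/SETD1 family, which methylate lysine 4 of histone H3. They were taken by name, as 6 of 21887 protein-coding genes in the RefSeq table, and every deposited peak inside them or within 5 kb of either gene end was collected. That gave 3 of 26888 WDR5 peaks in the mutant rescue and 2 of 11095 in the WT rescue. It gave 24 of 74305 H3K4me3 peaks in the mutant rescue and 30 of 71695 in the WT rescue. The mutant rescue line made WDR5 with the substitutions S91K and Y191F, and the WT rescue line made wild-type WDR5. Both lines were mouse embryonic stem cells with a GFP knock-in at Rx, grown in 2i+LIF, and in both the endogenous Wdr5 and p53 genes had been knocked out, and no line with native WDR5 or p53 was analysed here. Each of the 4 peak lists came from 1 ChIP-seq library, made after 10 minutes in 1% formaldehyde, so every difference between the lines is a description without a replicate check. The labels do not say whether a line is a single clone.

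Each enzyme works in a complex built around WDR5, RBBP5, ASH2L and DPY30, in which WDR5 is a scaffold subunit. KMT2A and KMT2B are a paralogous pair whose complexes carry menin and act at promoters, KMT2B being known in mouse embryonic stem cells for H3K4me3 at developmental promoters. KMT2C and KMT2D form a second pair, best known for monomethylation at enhancers, and SETD1A and SETD1B place much of the trimethyl mark at active promoters. Peaks of the mark are typical of promoters, whether or not the gene is being transcribed.

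The genes lie on mm10 chromosomes 9 (Kmt2a, 44803355 to 44881352), 7 (Kmt2b, 30568855 to 30589056, and Setd1a, 127777389 to 127800122), 5 (Kmt2c, 25271795 to 25498855, and Setd1b, 123142040 to 123168630) and 15 (Kmt2d, 98831669 to 98874077). They span 20.2 kb (Kmt2b), 22.7 kb (Setd1a), 26.6 kb (Setd1b), 42.4 kb (Kmt2d), 78.0 kb (Kmt2a) and 227 kb (Kmt2c), and the annotation used gives gene limits but no exons. RefSeq promoter windows on GRCm38.p6, the assembly of mm10, were matched for 4 of the 6 genes and run from 250 bases before to 50 bases after the annotated start. For Kmt2b and Setd1b, which were not matched, the gene end that carries H3K4me3 stands in for the start below.

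The 4 promoter windows are shown because the WDR5 and H3K4me3 peaks described next meet or miss them. The Kmt2a window (chr9:44881240-44881539, minus strand) lay wholly inside a WDR5 peak of the WT rescue, whereas the Kmt2d window (chr15:98871156-98871455, minus strand) lay beside one. The Setd1a window (chr7:127777139-127777438, plus strand) had H3K4me3 over all its bases and no WDR5 peak. The Kmt2c window (chr5:25498734-25499033, minus strand) had a break between H3K4me3 peaks in the WT rescue. In Kmt2a and Kmt2d the capitals mark matches to CCGCCC, the GC box, or its reverse complement GGGCGG, of which Setd1a has none. In Kmt2c they mark the bases of that break.
Kmt2a: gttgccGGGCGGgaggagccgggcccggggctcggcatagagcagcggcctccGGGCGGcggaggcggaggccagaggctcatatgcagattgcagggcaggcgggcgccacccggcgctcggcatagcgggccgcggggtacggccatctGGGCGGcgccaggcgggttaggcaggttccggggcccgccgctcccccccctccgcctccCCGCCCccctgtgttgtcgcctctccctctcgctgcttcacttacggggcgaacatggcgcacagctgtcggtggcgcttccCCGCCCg
Kmt2d: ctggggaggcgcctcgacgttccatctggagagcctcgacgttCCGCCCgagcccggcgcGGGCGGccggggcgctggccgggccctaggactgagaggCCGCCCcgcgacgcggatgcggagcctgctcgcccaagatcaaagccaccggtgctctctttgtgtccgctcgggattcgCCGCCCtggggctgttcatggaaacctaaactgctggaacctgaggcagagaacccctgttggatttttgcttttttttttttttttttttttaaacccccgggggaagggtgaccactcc
Setd1a: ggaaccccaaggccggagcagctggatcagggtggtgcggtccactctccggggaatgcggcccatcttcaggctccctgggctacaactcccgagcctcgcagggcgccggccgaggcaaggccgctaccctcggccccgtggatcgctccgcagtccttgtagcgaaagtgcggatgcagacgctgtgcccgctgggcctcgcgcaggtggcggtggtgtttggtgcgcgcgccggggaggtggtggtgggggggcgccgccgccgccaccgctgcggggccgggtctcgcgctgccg
Kmt2c: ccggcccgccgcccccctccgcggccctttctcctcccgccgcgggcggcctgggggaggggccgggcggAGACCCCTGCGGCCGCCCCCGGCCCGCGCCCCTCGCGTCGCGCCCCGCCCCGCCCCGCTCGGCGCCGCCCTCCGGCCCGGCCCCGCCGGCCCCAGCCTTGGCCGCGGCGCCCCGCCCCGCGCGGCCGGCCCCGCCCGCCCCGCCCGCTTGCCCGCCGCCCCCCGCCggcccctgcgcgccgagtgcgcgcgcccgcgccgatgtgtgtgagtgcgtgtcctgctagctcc

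All 4 windows were richer in G and C than the median promoter. Their GC content was 75.7% (Kmt2a), 62.7% (Kmt2d), 73.7% (Setd1a) and 88.0% (Kmt2c), beside a median of 56.3% over 21263 promoter windows of 17492 protein-coding genes, with quartiles of 48.3% and 64.7%. They held 36, 27, 35 and 56 CpG dinucleotides in that order of genes, beside a median of 13. Kmt2c stood at the extreme, with more GC than 99.98% of the windows, and Kmt2d was the least GC-rich of the 4. The GC box CCGCCC, searched on both strands and counted where matches overlap, occurred 5 times in Kmt2a, 4 times in Kmt2d, 0 times in Setd1a and 12 times in Kmt2c; 46.2% of all windows held at least 1 match. The E-box CACGTG, the CCAAT box and the ETS-type motif CCGGAAGT, each searched on both strands, had no match in any of the 4 windows, whereas 7.84%, 38.2% and 5.15% of all windows held them. These matches describe the letters only.

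WDR5 peaks were few at the enzyme genes, and 1 of the 5, at Setd1b, was overlapped by a WDR5 peak of the other line. Low overlap was general: over the whole lists, 5.09% of mutant rescue and 12.3% of WT rescue WDR5 peaks were so overlapped. Among the members it was 1 of 3 and 0 of 2. In the mutant rescue the 3 peaks were at Kmt2b, Kmt2c and Setd1b, all away from the start, while in the WT rescue the 2 peaks were at Kmt2a and Kmt2d, within 1 kb of the annotated start. Setd1a had no WDR5 peak in its window in either list. No member had a WDR5 peak within 5 kb in both lists, but Kmt2b and Setd1b did within 10 kb. The counts of genes were near the background of long genes, all members being of at least 20 kb: 3 of 6 members had a peak in the mutant rescue, where 36.2% of protein-coding genes and 54.9% of those of at least 20 kb did, and 2 of 6 in the WT rescue, where 30.7% and 41.4% did. Per 10 kb of window the members held 0.0629 WDR5 peaks in the mutant rescue and 0.0419 in the WT rescue, below the 0.116 and 0.0732 over all protein-coding genes.

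At the starts, 0 of 6 members had a WDR5 peak in the mutant rescue, where 9.65% of protein-coding genes did, and 2 of 6 in the WT rescue, where 16.5% did. Each peak carries a p and a q, its p adjusted for multiple testing, on a −log10 scale where larger means stronger. With a −log10 q of at least 2, a stricter threshold than the authors' own, the shares of all genes were 1.75% and 2.43%. At that threshold the mutant rescue again had 0 of 6 members and the WT rescue the same 2, Kmt2a and Kmt2d. With 6 genes and 1 library a group, whether these counts depart from the background was not tested.

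The WDR5 peak of Kmt2a in the WT rescue ran over 436 bp, from 44881190 to 44881625, and covered the start at 44881289 and all 300 bases of the window printed above. Its summit lay at base 26 of that window, at -225 bp from the start. It had a fold enrichment of 3.12, a −log10 p of 6.41 and a −log10 q of 2.24, the authors' values, and ranked 1066 of 11095 in its list, within the strongest 9.61%. The lncRNA gene Gm39326 also spans this promoter, so the peak cannot be given to Kmt2a alone. The nearest WDR5 peak of the mutant rescue was 108 kb away.

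The WDR5 peak of Kmt2d in the WT rescue was stronger than that of Kmt2a in the same list. It ran over 417 bp, from 98871756 to 98872172, with a fold of 4.11, a −log10 p of 8.75 and a −log10 q of 4.41, and ranked 596 of 11095, within the strongest 5.37%. It lay inside the gene's outer limits but upstream of the annotated start at 98871205, and shared no base with the window printed above. Its summit was at -630 bp from that start, next to the H3K4me3 summits, which lay at -656 bp in the mutant rescue and -668 bp in the WT rescue. The nearest WDR5 peak of the mutant rescue was 51.2 kb away.

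The 3 WDR5 peaks of the mutant rescue were among the weaker ones of their list. The Kmt2c peak, 152 bp wide and 159 kb into the gene, had a fold of 2.42, a −log10 p of 3.07 and a −log10 q of 0.0171. The Kmt2b peak, from 30577398 to 30577588 and 11.5 kb into the gene from the end with H3K4me3, had a fold of 2.08, a −log10 p of 2.60 and a −log10 q of 0. The Setd1b peak, 658 bp wide and 4.85 kb upstream of the gene, had a fold of 1.797, a −log10 p of 2.33 and a −log10 q of 0. By −log10 p they stood at 60.4%, 82.7% and 90.9% of the way down the list. The peaks in Kmt2c and Kmt2b met no H3K4me3 peak and no WDR5 peak of the WT rescue.

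The Setd1b peak lay at the limit of the window. A WDR5 peak of the WT rescue, from 123136441 to 123136856 with a fold of 2.14, overlapped it but ended 5.18 kb from Setd1b and was therefore not counted. The next peak outside the window was a WDR5 peak of the WT rescue 5.35 kb below Kmt2b, of fold 2.89. The farthest peaks inside were the H3K4me3 peaks 4916 bp (mutant rescue) and 4995 bp (WT rescue) below Kmt2b, which reach the end of the neighbouring gene Psenen.

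**Figure D1:**
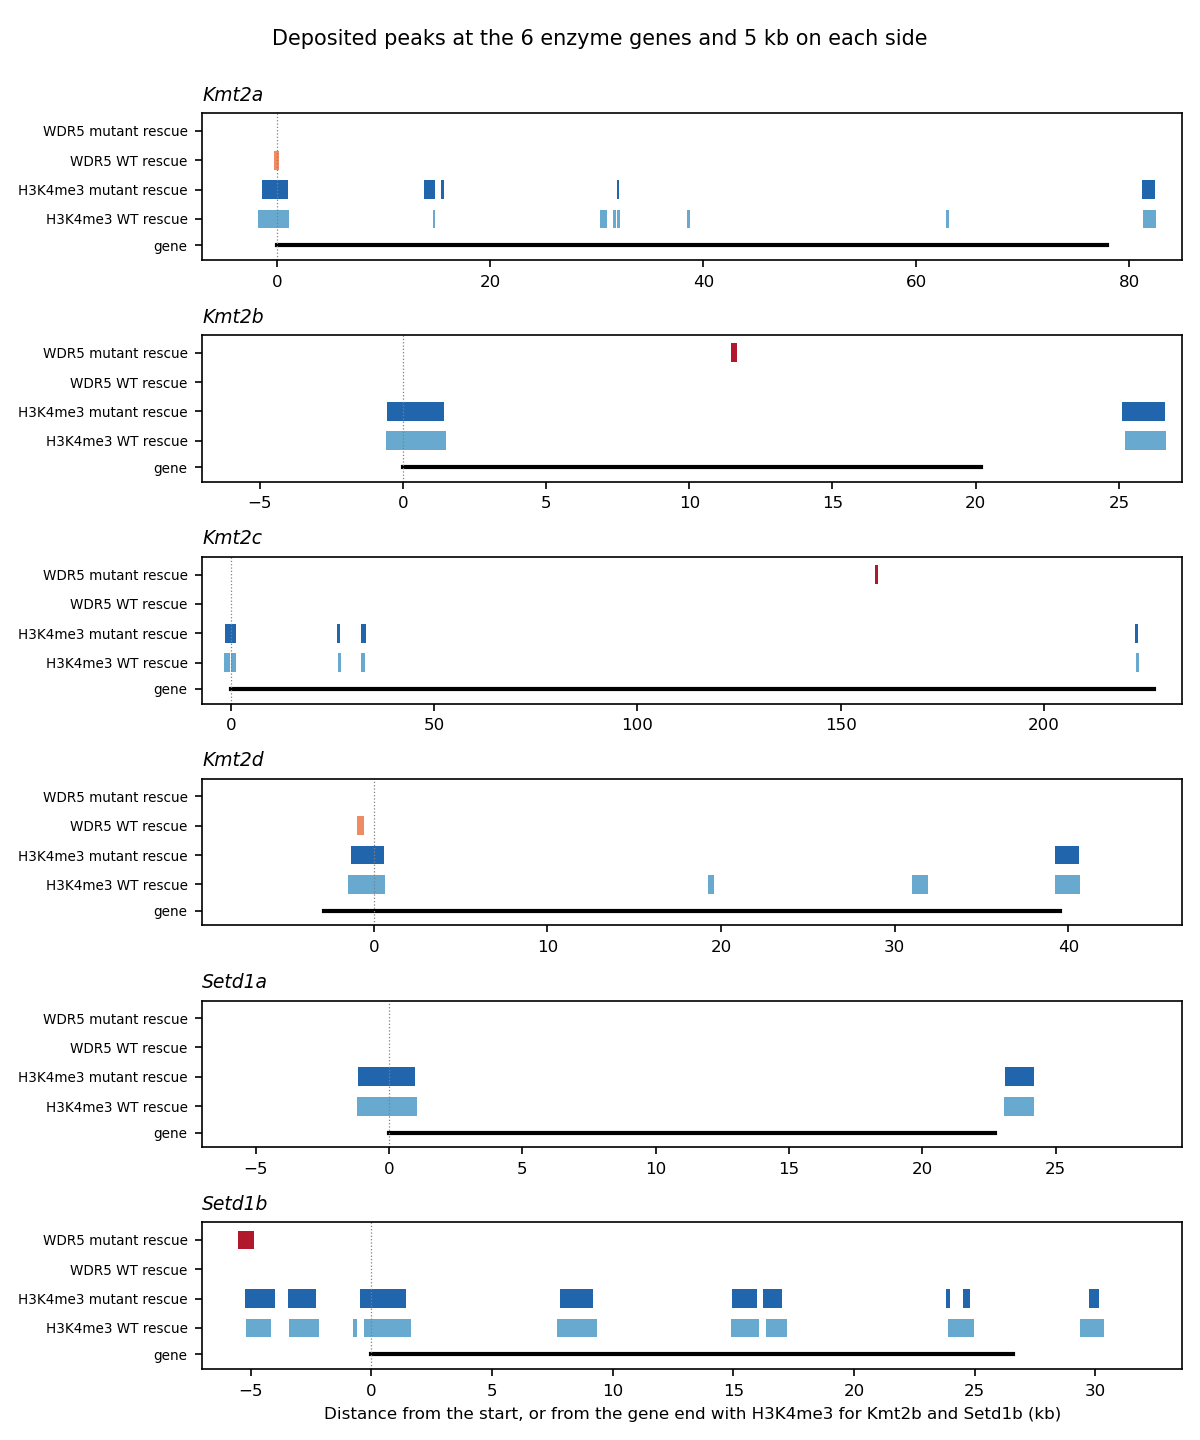
Position of each deposited peak (coloured boxes, 1 row per list) along the 6 genes and 5 kb on each side, in kb from the start; the black bar is the gene. H3K4me3 boxes lie at the 4 annotated starts in both lines (for Kmt2b and Setd1b, 0 is the gene end chosen for its H3K4me3), WDR5 boxes lie at the starts of Kmt2a and Kmt2d in the WT rescue, and the 3 WDR5 boxes of the mutant rescue lie elsewhere. Boxes too narrow to see were widened for drawing.

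**Figure D2:**
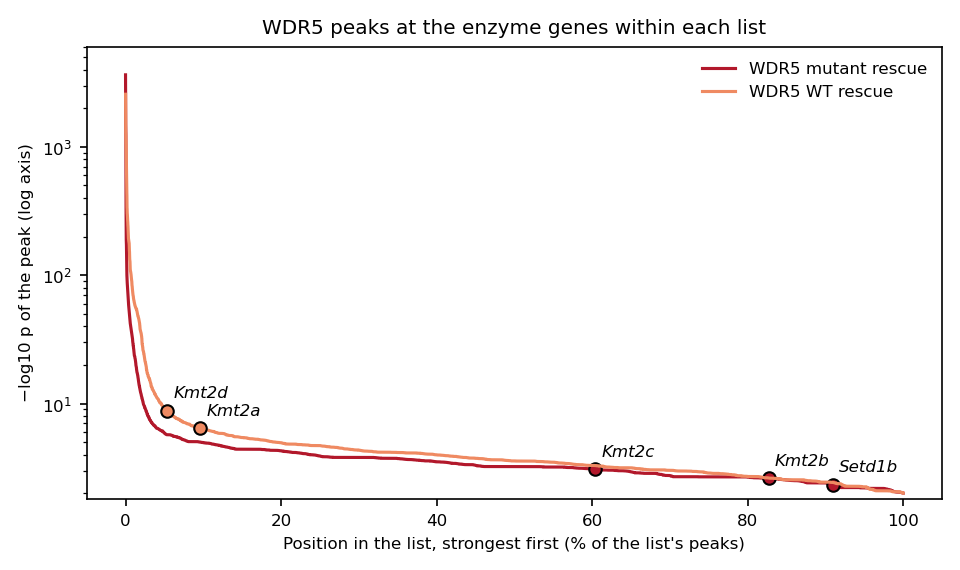
WDR5 peaks of each list ordered by −log10 p (log axis), with the position in the list in percent on the horizontal axis and the members' peaks as circles. The Kmt2d and Kmt2a peaks lie within the first 9.61% of the WT rescue list, and the Kmt2c, Kmt2b and Setd1b peaks lie at 60.4% or later in the mutant rescue list.

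The overlap of WDR5 with H3K4me3 followed these positions. In the mutant rescue 1 of 3 member peaks (33.3%, exact 95% interval 0.840 to 90.6%) lay on an H3K4me3 peak of the same line, beside 12.3% of the whole list. In the WT rescue 2 of 2 did (100%, 15.8 to 100%), beside 46.0% of the whole list. Intervals here cover counting error only and are wide, and the share of each whole list lies inside them. Of WDR5 peaks with a −log10 q of at least 2, 52.5% of the WT rescue list were overlapped by a WDR5 peak of the mutant rescue, but neither the Kmt2a nor the Kmt2d peak was.

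H3K4me3 lay at the start of each of the 4 enzyme genes with an annotated start, Kmt2a, Kmt2c, Kmt2d and Setd1a, in both lines. Of all 17492 genes with an annotated start, 67.9% had an H3K4me3 peak within 1 kb of it in the mutant rescue and 68.6% in the WT rescue. At Kmt2b and Setd1b the end with H3K4me3 was taken as the start, so that its presence there is no observation. With an H3K4me3 peak at either gene end counted for genes without a start, the shares of all genes were 68.0% in the mutant rescue and 68.8% in the WT rescue. The summed width of the peaks there was above the median of all genes with such a peak for every member in both lines. That median was 1493 bp in the mutant rescue, with quartiles of 1225 and 1853 bp, and 1574 bp in the WT rescue, with quartiles of 1253 and 1987 bp.

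Kmt2c and Kmt2a had the widest H3K4me3 at their starts. Kmt2c had 2868 bp in the mutant rescue, wider than 96.7% of genes, and 2765 bp in the WT rescue, wider than 94.0%. The WT rescue value of Kmt2c sums peaks of 1308 and 1457 bp and leaves out the break between them. Kmt2a had 2469 bp in the mutant rescue, wider than 93.0%, and 2868 bp in the WT rescue, wider than 95.2%. Setd1a followed, with 2127 bp in the mutant rescue and 2247 bp in the WT rescue. The others were narrower: Kmt2b had 1969 bp in the mutant rescue and 2068 bp in the WT rescue. Kmt2d had 1889 bp in the mutant rescue and 2107 bp in the WT rescue. Setd1b had 1885 bp in the mutant rescue and 2134 bp in the WT rescue, where the value sums a 1947 bp peak and a 187 bp one.

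In summed width the peaks were narrower in the mutant rescue at 5 of 6 members, Kmt2c being the exception, with a median difference, mutant rescue minus WT rescue, of -169 bp. The same held for 74.7% of the 14727 genes with a start peak in both lists, whose median difference was -82 bp. The Kmt2c exception rests on the 166 bp break, which its summed WT rescue width leaves out. From end to end the WT rescue peaks of Kmt2c reached slightly beyond the mutant rescue peak on both sides. Peak width depends on read depth, which peak lists do not give, and the members' share was near that background.

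**Figure D3:**
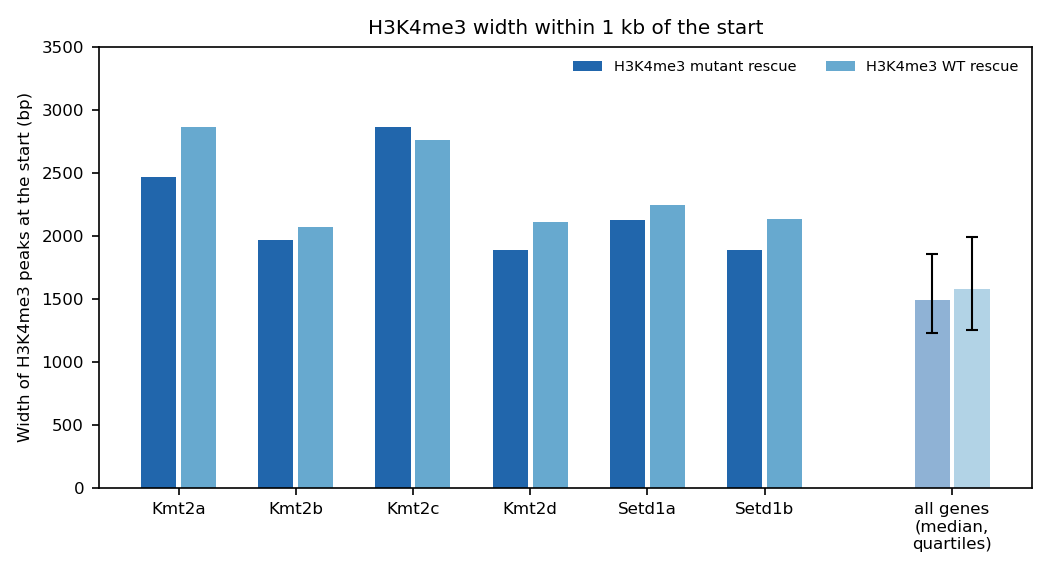
Summed width in bp of the H3K4me3 peaks within 1 kb of the start, for each member in the mutant rescue (dark) and the WT rescue (light). The paired bars at the right give the median of all protein-coding genes with a start peak, and their error bars the quartiles; all members lie above the median of their list, from 1885 to 2868 bp in the mutant rescue.

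In fold enrichment the order was different. Within the mutant rescue list the folds at the starts were 9.90 (Kmt2b), 8.63 (Kmt2d), 8.48 (Setd1a), 7.17 (Kmt2a), 5.59 (Kmt2c) and 3.89 (Setd1b). Within the WT rescue list they were 9.21 (Kmt2b), 7.85 (Setd1a), 7.76 (Kmt2d), 6.41 (Kmt2a), 5.52 (Kmt2c) and 3.19 (Setd1b). All lay below the median of the start peaks of all genes, which was 10.3 in the mutant rescue and 10.1 in the WT rescue. Thus the members had start peaks wider than the median and of lower fold. Setd1b was lowest, above only 5.02% of genes in the mutant rescue and 2.23% in the WT rescue. Setd1a and Kmt2d, which change places between the lists, were close to each other in both.

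The start of Kmt2c carried 1 unbroken H3K4me3 peak in the mutant rescue, from 25497491 to 25500358, and 2 peaks in the WT rescue, from 25497490 to 25498797 and from 25498964 to 25500420. The outer limits were almost the same in both lists. The break in the WT rescue was 166 bp long, from 25498798 to 25498963, and all of it lay in the promoter window printed above, just upstream of the annotated start at 25498783. GC content was 92.8% in the break and 88.0% in the whole window. The part of base composition in the break was not tested.

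The start of Kmt2b has a close neighbour. The Kmt2b start peak ended 87 bp (mutant rescue) and 48 bp (WT rescue) from the near end of Zbtb32, a zinc-finger transcription factor gene. H3K4me3 there cannot be divided between the neighbours. The H3K4me3 at and upstream of the Setd1b start cannot be assigned to Setd1b alone either. A further 5 peaks in each list lay within 1 kb of an end of a neighbouring gene: Tmem25 near Kmt2a, Psenen near Kmt2b, Prkag1 at the far end of Kmt2d, Hsd3b7 near Setd1a and Hpd near Setd1b. All 5 were overlapped in the other line.

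Over all their windows, 23 of 24 member H3K4me3 peaks in the mutant rescue (95.8%, 78.9 to 99.9%) were overlapped by one of the WT rescue, and 23 of 30 in the WT rescue (76.7%, 57.7 to 90.1%) by one of the mutant rescue. The shares of the whole lists were 77.7% and 80.7%. The first lies just below the members' interval and the second inside it. Of the 24 mutant rescue peaks, 6 lay at starts and 5 at ends of neighbouring genes, and all of these were overlapped. Among the members more unmatched peaks lay on the WT rescue side, where the matched share was near that of the whole list. All but 1 of those 7 were internal, in Kmt2a and Kmt2d. A difference between the sides was not tested.

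Inside the genes, away from starts and neighbours, the mutant rescue list held 11 internal H3K4me3 peaks, 3 in Kmt2a, 3 in Kmt2c and 5 in Setd1b. The WT rescue list held 15, 6 in Kmt2a, 3 in Kmt2c, 2 in Kmt2d and 4 in Setd1b. Kmt2b and Setd1a had none in either list. Of the internal peaks, 10 of 11 in the mutant rescue (90.9%, 58.7 to 99.8%) and 9 of 15 in the WT rescue (60.0%, 32.3 to 83.7%) were overlapped in the other line. Over all protein-coding genes 73.6% of internal mutant rescue peaks and 72.7% of internal WT rescue peaks were overlapped, and each share lies inside the members' interval.

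The internal peaks found in a single list belonged to Kmt2a and Kmt2d, and all had a −log10 p under 10. In the mutant rescue alone Kmt2a had a 236 bp peak of fold 2.35 and −log10 p 2.82, 15.4 kb into the gene. The nearest H3K4me3 peak of the WT rescue was 0.546 kb from it. In the WT rescue alone Kmt2a had 4 peaks 30.4 to 63.0 kb into the gene, with folds from 2.12 to 3.27 and −log10 p from 2.39 to 5.67. The H3K4me3 peaks of the mutant rescue nearest to these lay 0.066, 0.927, 6.37 and 18.2 kb away. Kmt2d had 2 internal peaks in the WT rescue alone. The stronger, 924 bp wide and 31.6 kb from the start, had a fold of 4.23 and a −log10 p of 9.08, and the other, 321 bp wide, a fold of 2.69 and a −log10 p of 3.90. Of all internal WT rescue peaks with a −log10 p under 10, 54.5% were overlapped in the mutant rescue, beside 3 of 9 (33.3%, 7.49 to 70.1%) in the members.

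The 9 internal WT rescue peaks with a partner lay in Kmt2a, Kmt2c and Setd1b. In Kmt2c the largest contrast was at the peak 26.6 kb into the gene, which was 312 bp wide with a −log10 p of 7.12 in the mutant rescue and 917 bp wide with a −log10 p of 44.0 in the WT rescue. At the peak 32.6 kb (mutant rescue) and 32.8 kb (WT rescue) into the same gene the order was turned, with 1312 bp and a −log10 p of 21.7 in the mutant rescue against 890 bp and 12.2 in the WT rescue. So these internal peaks of Kmt2c did not differ in a common direction. Across the 9 pairs the mutant rescue peak was narrower in 6, against 50.5% of 17790 internal pairs over all genes. Its −log10 p was lower in 8, against 67.2%. A −log10 p grows with read depth, which is unknown here. A lower value in 1 list therefore does not show a lower level of the mark. For the strongest peak at each start the −log10 p was lower in the mutant rescue at Kmt2a, 392 against 469. It was higher there at Kmt2b (612 against 549), Kmt2c (328 against 310), Kmt2d (515 against 465), Setd1a (403 against 380) and Setd1b (184 against 156).

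Setd1b stood apart from the other members in the share of its window under H3K4me3. Of its 36.6 kb window 22.1% was covered in the mutant rescue, more than in 97.8% of protein-coding genes, and 27.4% in the WT rescue, more than in 99.0%. The other members ranged from 2.04% (Kmt2c) to 9.75% (Setd1a) in the mutant rescue and from 2.21% (Kmt2c) to 10.3% (Setd1a) in the WT rescue. The medians over all protein-coding genes were 4.85% and 5.01%. Each list held 9 H3K4me3 peaks in the Setd1b window, or 2.46 per 10 kb. The other members held from 0.169 (Kmt2c) to 0.662 (Kmt2b) per 10 kb in the mutant rescue. In the WT rescue they held from 0.211 (Kmt2c) to 0.909 (Kmt2a). All genes held 0.413 in the mutant rescue and 0.417 in the WT rescue. The 6 members together held 0.503 and 0.629, totals to which Setd1b gave 9 of 24 and 9 of 30 peaks.

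The H3K4me3 peaks in the Setd1b window were spread over the gene and its upstream side, and the start and upstream ones, which cannot be assigned to Setd1b alone, are part of the cover given above. Upstream lay a pair in each list, at 2.31 and 3.98 kb from the gene in the mutant rescue and at 2.18 and 4.14 kb in the WT rescue. The one farther from the gene was of low fold, 1.498 in the mutant rescue and 1.59 in the WT rescue. Within the gene the first internal peak, 8.29 kb (mutant rescue) and 8.34 kb (WT rescue) from the start, was 1361 bp wide with a −log10 p of 12.8 in the mutant rescue and 1633 bp wide with a −log10 p of 51.7 in the WT rescue. The next pair, with summits at 15.6 and 16.5 kb in the mutant rescue and at 15.6 and 16.7 kb in the WT rescue, had a −log10 p of 14.0 and 12.5 in the mutant rescue and of 35.6 and 37.1 in the WT rescue. The last internal peak was 1110 bp wide in the WT rescue, where the mutant rescue list had 2 peaks of 157 and 304 bp. Every internal H3K4me3 peak of Setd1b was thus present in both lists, with lower −log10 p in the mutant rescue. At the strongest start peak the −log10 p was instead higher in the mutant rescue, 184 against 156. Along the gene the folds of the internal peaks were 3.87, 4.57, 4.30, 3.20 and 2.99 in the mutant rescue. In the WT rescue they were 5.23, 4.21, 4.28 and 4.15.

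**Figure D4:**
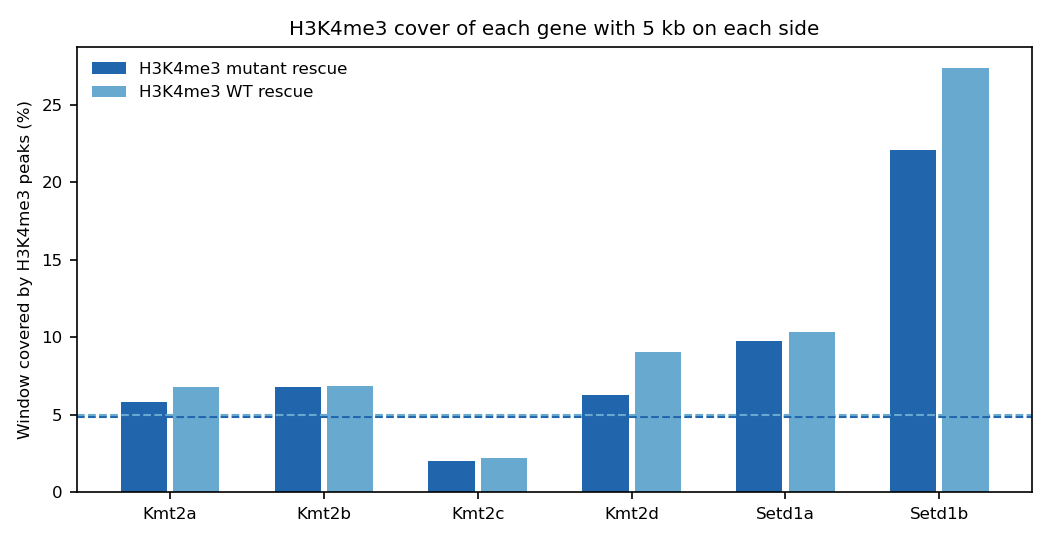
Share of each gene's window, the gene with 5 kb on each side, that H3K4me3 peaks cover in the mutant rescue (dark) and the WT rescue (light), in percent. Dashed lines give the medians of all protein-coding genes, 4.85% and 5.01%; Setd1b lies far above them at 22.1% and 27.4% and Kmt2c below at 2.04% and 2.21%.

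WDR5 peaks near genes of the enzymes' partners were counted at starts and over whole windows. Of 16 core and accessory subunit genes, 0 had a WDR5 peak within 1 kb of the start in the mutant rescue and 6 in the WT rescue, where the shares of all genes were the 9.65% and 16.5% given above. By fold these began with Wdr82, a subunit of the SETD1 complexes (3.58), Psip1, which tethers KMT2A with menin to chromatin (2.67), Wdr5 itself (2.35) and Rbbp5 (2.15). Dpy30 and Paxip1 followed. The Wdr5 peak had a −log10 q of 0 and lies at the gene knocked out in both lines. Whether that engineering bears on the peak was not tested. Within the gene or 5 kb of it, 6 of 16 had a WDR5 peak in the mutant rescue and 8 of 16 in the WT rescue. Over such windows 36.2% and 30.7% of all protein-coding genes had one, and 54.9% and 41.4% of those of at least 20 kb. Of the 6 genes with a start peak in the WT rescue, Wdr82 alone had a −log10 q of at least 2 there, at 2.496. H3K4me3 lay at the starts of 15 of 16 in both lines, Ncoa6 being without.

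Related and opposing enzymes were counted in the same way. Of 8 other methyltransferase genes, 1 had a WDR5 start peak in the mutant rescue and 3 in the WT rescue. Ash1l, an H3K36 methyltransferase of the trithorax group, had one of fold 2.82 in the mutant rescue and one of fold 3.90 in the WT rescue that did not overlap it, and Smyd3 (3.46) and Setd7 (2.14), genes of SET-domain methyltransferases, had theirs in the WT rescue alone. Of 7 demethylase genes 0 had one in the mutant rescue and 2 in the WT rescue, Kdm1a (2.60), whose product LSD1 removes mono- and dimethyl marks, and Kdm5b (2.40), which acts on the trimethyl mark. Of these methyltransferase and demethylase peaks, that of Ash1l in the WT rescue alone had a −log10 q of at least 2, at 2.88. H3K4me3 lay at the starts of 7 of 8 methyltransferase genes, all but Smyd1, and 7 of 7 demethylase genes in both lines. For Psip1, Ash1l, Smyd3 and Chd1, as for Kmt2b and Setd1b, a gene end stands in for the start. Of 11 genes for H3K4me3 readers, 3 had one in the mutant rescue and 9 in the WT rescue, and 11 had H3K4me3 at the start in both lines. The shares of all genes with a WDR5 start peak were 9.65% in the mutant rescue and 16.5% in the WT rescue, and those with H3K4me3 at the start 68.0% and 68.8%. Over whole windows, the gene with 5 kb on each side, the counts of the 2 lines were closer. In the mutant and the WT rescue, 4 and 3 methyltransferase genes, 3 and 3 demethylase genes and 8 and 9 reader genes had a WDR5 peak. The shares of all genes over such windows were 36.2% and 30.7%. No list was tested against these shares.

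The reader genes with a WDR5 start peak in the mutant rescue were Ing5 (3.77), a subunit of histone acetyltransferase complexes, Chd1 (3.12), a chromatin remodeller, and Spin1 (2.12), a Tudor-domain protein. The first pair of these had a −log10 q of at least 2, at 5.52 and 2.65, while 0 of the 9 in the WT rescue did. The highest folds in the WT rescue were 3.46 for Bptf, a subunit of the NURF remodeller, 2.88 for Ing5, 2.82 for Chd1 and 2.78 for Ing2. Ing5, Chd1, Spin1 and Ash1l had a WDR5 start peak in both lists. So did 4.34% of all protein-coding genes, 0 of the 6 enzyme genes, 0 of the 16 subunit genes and 0 of the 7 demethylase genes, and with so low a background no contrast is read from these counts. As a check of the cells, all 6 embryonic stem cell genes examined, Pou5f1 and Nanog among them, had H3K4me3 at their starts in both lines. Of 4 fibroblast genes 3 did in the mutant rescue and 4 in the WT rescue, so that these starts do not separate the cell types.

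The genes most like the median member in cover by the 4 lists were E4f1, Ercc6l, Rab12, Dnajc16 and Fgf6. Likeness was the distance over 4 values, log2(bp covered per kb of window + 1) in each list, and was 0.358 for all 5. Each had no WDR5 peak and between 66.1 and 66.5 bp of H3K4me3 per kb in the mutant rescue and between 78.2 and 79.7 bp per kb in the WT rescue. With 4 lists many genes lie at like distances, and the members themselves lay between 0.772 (Setd1a) and 3.19 (Kmt2d) from that median.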

How the data were processed

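Peak lists from WDR5 and from H3K4me3 ChIP-seq, 1 per antibody and rescue line, were used; both input libraries (2) were not analysed here. The alignment and peak-calling tools named in the submitters' processing notes are MACS2 2.1.2, Picard, SAMtools and BWA 0.7.17-r1188, and the build is mm10; settings and controls are not given in the sources used here. Columns of the deposited lists that were used are the authors' fold enrichment (a ratio), −log10 p, −log10 q and summit; the deposited score was not used. The smallest −log10 p deposited was 2.00. Read depth is unknown, and fold was used only to describe or rank peaks within a list.

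Peaks were assigned with scipy 1.17.1, pandas 2.3.3 and numpy 2.4.6 under Python 3.11.15, by an overlap of at least 1 bp, to RefSeq genes (GRCm38.p6) with 5 kb on each side, and to starts within 1 kb. Starts were known for 17492 of 21887 protein-coding genes; for the rest either gene end counted. A peak is internal when it lies inside a gene and over 1 kb from its start and from other genes' ends; over all genes, also over 1 kb from the gene's own ends. Shares have exact (Clopper-Pearson) 95% intervals. The assignment was tested on simulated peaks. All 6 members are described; of other pathway genes, those with a WDR5 start peak are named, up to 4 per list by fold; Dpy30, Paxip1 and the stem cell genes named were added after their values were seen. The members and lists were chosen with earlier results of these data known. With 1 library a group there is no test. A neighbouring gene of Setd1b is not reported here.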

Additional observations from a re-analysis of the deposited data

How the results depend on the processing

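Under the 8 alternatives planned, 60 of 80 values stayed within 1.5 times the count, or within the interval of the share, given in the report; the other 20 are given here. The WDR5 peaks of the mutant rescue were the least stable: with lists of equal length, with −log10 p of 5 or more or with −log10 q of 2 or more, their count and the count of members with one were 0 and 0, while the Kmt2a and Kmt2d peaks of the WT rescue were kept. Under the same 3 settings 100% of the mutant rescue H3K4me3 peaks were overlapped in the WT rescue. With the gene alone or a window of 2.5 kb the mutant rescue WDR5 peak of Setd1b fell outside, and 0% of the others were overlapped by WDR5 of the WT rescue or by H3K4me3. With a window of 10 kb the WT rescue had 4 WDR5 peaks at 4 members, of which 2, Kmt2b and Setd1b, also had one in the mutant rescue. A reciprocal overlap of 50% gave 0% for the mutant rescue WDR5 peaks against either list and 0% for the WT rescue WDR5 peaks on H3K4me3, by construction where a narrow peak lies in a wide one, and 70.8% and 56.7% for H3K4me3 in the mutant and the WT rescue. The 4 annotated starts kept H3K4me3 in both lines under every alternative run; so did Kmt2b and Setd1b, whose start was chosen for it. No paired analysis was possible because each group has 1 library. Unknown depth limits every count and width.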
